A study of Bombus terrestris with 20 samples.

Results

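The inactive ovary was compared with the brain in ovary-inactive workers of the bumblebee *Bombus terrestris*, that is, in workers whose ovaries scored 0 to 1 for activation and which were not reproducing. The comparison used 6 of the 20 mRNA-seq libraries of the series: 3 libraries of ovary (hereafter inactive ovary) and 3 of brain, both from untreated workers of *B. t. audax* aged 24 to 32 days, taken from queenright colonies in which workers had begun to lay. Each library was a pool of the tissue of 7 workers, apart from 1 brain pool of 14 workers. For another brain pool the colonies were bought at a later date, and the labels do not tell which replicates these were. Brains were freed of attached gland and muscle. The paper describes 1 set of pools of ovary-inactive workers for all tissues. For brain, pools with too little RNA were joined into the pool of 14, and the later pool was added. Apart from that later pool, ovary and brain by this description drew on the same workers. The members of the comparison were the 9784 genes listed in both the ovary and the brain table, of 10346 genes listed in either, and each library was first scaled to the same total over those genes (24121101). All levels below are these scaled counts, and all differences are log2(scaled count + 1) in inactive ovary minus brain, so that a positive value is a gene higher in inactive ovary.

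The inactive ovary of a worker holds ovarioles, tubes in which germ cells lie among nurse and follicle cells and which are wrapped in a muscular sheath. In insects, the early germline carries messenger RNAs under translational control and small RNAs (piRNAs) that silence transposons, and ovarian cells can make ecdysteroid hormones. The brain is made mainly of neurons and glia, which signal through neuropeptides, transmitters, their receptors, and ion channels. In a pooled tissue, fewer cells of a type and less RNA per cell cannot be told apart.

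The inactive ovary libraries held 23118226 to 31164293 reads and the brain libraries 24996476 to 28508847, and 1 read was worth 0.775 to 1.044 scaled counts. Across genes, libraries of the same tissue correlated at Pearson's r of 0.961 to 0.984, and libraries of different tissues at 0.580 to 0.649, with the highest values between tissues for replicate 3 of inactive ovary. The brain libraries were the more dominated by few genes, as the 10 most abundant genes took 4.2% to 4.6% of the total in inactive ovary and 8.4% to 10.3% in brain. Marker genes, 1 for each tissue, stood on the side of the label: CPEB1 (LOC100644634), a germline gene, stood at 106591 to 157124 in inactive ovary and at 109 to 221 in brain, and the neuronal sodium channel para stood at 27.1 to 45.9 in inactive ovary and at 5294 to 10798 in brain. CPEB1 was also among the 10 genes with the largest positive differences, so it is no independent check of the labels. Para was not particular to brain, as it had a mean of 4373 normalized counts in fat body of ovary-inactive workers, in a table normalized separately. Descriptive names, mostly given by similarity to other species, were held for 2194 of the 9784 genes (22.4%), so the gene lists below cover only part of each pathway, and the other genes appear under their identifiers.

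Of the 9507 genes with a mean of at least 10, 4566 were higher and 2316 lower in inactive ovary than in brain (limma, adjusted p under 0.05), which is 48.0% and 24.4% of the genes tested and 72.4% together. The remaining 2625 were not called, and 7078 had an unadjusted p under 0.05. The shares of 48.0% and 24.4% are a rough background for the counts called in each gene list below. They are not matched to the named genes, since in the later range of identifiers only genes expressed in eggs had names here. Genes strongly lower in inactive ovary were less often abundant in eggs (below), so the lists may lack such genes. The balance between the directions depended on the scaling. With equal totals the median log2 difference of all genes was 0.42, so changes are best read relative to that value. Under median-of-ratios scaling the median was 0.02, and 3197 genes were higher (33.6%) and 3239 lower (34.0%).

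Large differences ran the other way from the overall balance. A log2 difference of 3 or more, which is 8-fold, was reached by 497 genes called higher in inactive ovary (5.23%) and by 719 called lower (7.56%), and a difference of 8 or more by 21 and 73. The excess of strongly lower genes held under each of the 5 scalings tried, with 411 higher and 831 lower by 3 or more under median-of-ratios scaling. The threshold of 3 was chosen after the values were seen.

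**Figure D1:**
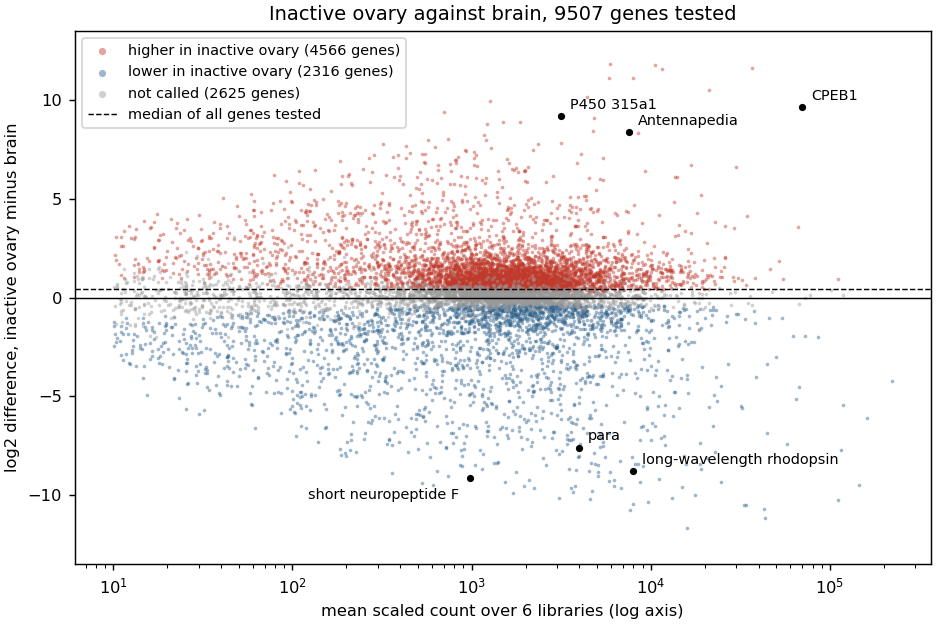
The log2 difference of each of the 9507 genes tested (inactive ovary minus brain, vertical) against its mean scaled count over the 6 libraries (log axis, horizontal), with genes called higher in inactive ovary in red (4566), lower in blue (2316), and not called in grey (2625). The median of all genes lies at 0.42 (dashed line), and 73 blue against 21 red points lie 8 or more from 0.

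Genes of neuronal signalling were lower in inactive ovary. Of 6 neuropeptide precursors tested, 5 were lower and none higher (median log2 difference -3.37, against 0.42 over all genes tested). Short neuropeptide F, a peptide that acts on feeding circuits in insects, stood at 1.78, 3.88, and 2.09 in inactive ovary and at 1617, 2256, and 2020 in brain. Its log2 difference was -9.13 (SE 0.30, adjusted p = 8.95e-07), so the peptide was at a few reads per ovary library. Prohormone-4 was the most abundant of the precursors in brain, with 414.5, 339.4, and 455.2 in inactive ovary and 28099, 23979, and 26123 in brain (-6.02, SE 0.14). Diuretic hormone 44, which in insects acts on the Malpighian tubules, was at 246.0, 195.0, and 191.1 in inactive ovary and at 1997, 2570, and 2281 in brain (-3.43, SE 0.17). The libraries of the 2 tissues did not overlap for any of these 3 peptides, and prohormone-1 followed with -3.31 and neuropeptide-like 1 with -2.41. FMRFamide-related peptides were not called, at 194.3, 186.8, and 165.0 in inactive ovary and 219.6, 188.8, and 240.5 in brain (-0.24, adjusted p = 0.28).

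Enzymes that mature peptides were also lower. Of 4 tested, 3 were lower in inactive ovary: neuroendocrine convertase 2, which cuts precursors (-1.89, SE 0.11), peptidylglycine alpha-hydroxylating monooxygenase (-1.44, SE 0.10), and peptidyl-alpha-hydroxyglycine alpha-amidating lyase 1 (-1.22, SE 0.10), the pair that amidates peptides. The convertase was still at 2992, 2566, and 2590 in inactive ovary, beside 10412, 9406, and 10259 in brain. Glutaminyl-peptide cyclotransferase, which modifies the first residue of some peptides, was not called (0.05, adjusted p = 0.77). Peptide receptors showed no common direction. Of 5 tested, 1 was lower and 1 higher, both below the shares of all genes tested (24.4% and 48.0%). The allatostatin-A receptor was lower (-1.23, SE 0.19). The capa receptor, a receptor for peptides that act on the tubules, was higher, with 135.3, 144.1, and 202.6 in inactive ovary and 12.2, 11.1, and 9.66 in brain (3.74, SE 0.28).

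Transmitter receptors were mostly lower, with 9 of the 11 tested called lower and none higher (median -1.69), and 1 more had a mean under 10. Dopamine receptor 1 was at 7.13, 6.98, and 7.31 in inactive ovary and at 1748, 1616, and 1843 in brain, a log2 difference of -7.74 (SE 0.20). Metabotropic glutamate receptor 8 was at 4.46, 0.00, and 10.4 in inactive ovary and at 704.7, 283.6, and 520.5 in brain (-6.89, SE 0.86). The neuronal acetylcholine receptor subunit alpha-7 (-4.42, SE 0.65) and the NMDA-type glutamate receptor 2B (-4.23, SE 0.37), which form ion channels opened by acetylcholine and by glutamate, were also lower without overlap. A second acetylcholine receptor subunit, beta-like 2, and the octopamine receptor Oamb kept more of their level in inactive ovary (-1.69, SE 0.13, and -1.36, SE 0.18). The GABA receptor subunit beta-like was not called, at 1406, 1704, and 1568 in inactive ovary and 1625, 1301, and 1429 in brain (0.10, adjusted p = 0.50).

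Of 3 channels tested, 1 was lower with equal totals, near the 24.4% of all genes tested. Of 3 genes of transmitter synthesis and transport, 2 were lower and 1 higher. The sodium channel para, which carries the rising phase of nerve impulses, was at 42.8, 27.1, and 45.9 in inactive ovary and at 10798, 5294, and 7565 in brain (-7.61, SE 0.31). The other 2 channels tested, a hyperpolarization-activated channel (-0.70, adjusted p = 0.12) and the calcium channel flower (-0.50, adjusted p = 0.057), were not called with equal totals and were lower under median-of-ratios scaling, where all 3 channels were called lower. GABA transporter 1, which takes up the transmitter GABA, was at 21.6, 29.0, and 91.6 in inactive ovary and at 7404, 6160, and 6849 in brain (-7.42, SE 0.48), and the related transporter ine was at -1.28 (SE 0.19). Acetylcholinesterase, which breaks down acetylcholine, was abundant in both tissues, with 13933, 10925, and 12227 in inactive ovary and 10375, 7576, and 8917 in brain (0.47, SE 0.16, adjusted p = 0.031), and it lost this call under median-of-ratios scaling (0.07, adjusted p = 0.70) and without replicates 1 or 3 of inactive ovary or 2 or 3 of brain (0.35 to 0.58 over the 6 libraries left out in turn).

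Of 7 synaptic genes, 5 were lower and none higher (median -1.32). Endophilin-A, which helps to recycle synaptic vesicles, was at 577.0, 607.9, and 634.5 in inactive ovary and at 6686, 2394, and 4895 in brain (-2.82, SE 0.34). SNAP-25, a protein of vesicle fusion, was at 4747, 3958, and 5729 in inactive ovary and at 27519, 13635, and 19915 in brain (-2.04, SE 0.27). Syntaxin-1A, its partner in fusion, was not called, with 15593, 12453, and 17217 in inactive ovary and 13394, 9394, and 10988 in brain (0.43, adjusted p = 0.072). In para, endophilin-A, and SNAP-25 alike, replicate 2 of brain was the lowest and replicate 1 the highest brain library. The summed level of the ribosomal proteins had the opposite order in brain, with 123050, 205343, and 152928 in replicates 1, 2, and 3, and the part of this in the neuronal genes was not tested.

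**Figure D2:**
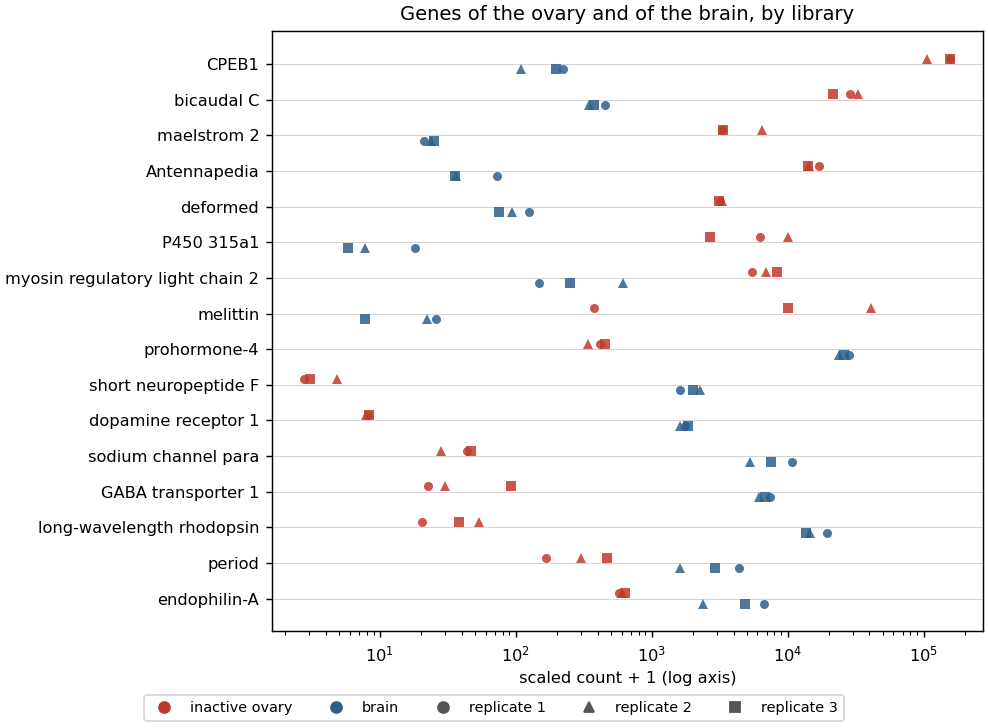
Scaled counts plus 1 (log axis) of 16 genes in each of the 6 libraries, with inactive ovary in red above brain in blue and the replicate given by the symbol. The 8 upper genes are higher and the 8 lower genes lower in inactive ovary in every library, and the widest spread within a tissue is that of melittin in inactive ovary (375.3 to 40695).

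The brain libraries also held transcripts of photoreceptors and of the clock. Long-wavelength rhodopsin, the green-sensitive visual pigment, was at 19.6, 52.7, and 37.6 in inactive ovary and at 19332, 14653, and 13594 in brain (-8.81, SE 0.34), and a second rhodopsin was at 8.02, 5.43, and 3.13 in inactive ovary and at 281.9, 336.1, and 66.6 in brain (-4.91, SE 0.65). Of the 3 photoreceptor markers tested, these 2 were lower and the third, neither inactivation nor afterpotential protein G, was at similar levels (0.03, adjusted p = 0.90). The summed level of the list was 312.2 to 416.2 in inactive ovary and 13960 to 19925 in brain, and the part of eye tissue in the brain pools was not tested. Period, a core gene of the circadian clock, was at 164.8, 302.3, and 464.6 in inactive ovary and at 4417, 1628, and 2903 in brain (-3.27, SE 0.46). The gene named circadian clock-controlled protein had 3 reads in all in inactive ovary and 1209 in brain, so that its level in inactive ovary was 0.240% of that in brain (95% exact interval 0.0494% to 0.703%, counting error only).

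Chemosensory genes showed no common direction. Of 6 tested, the odorant receptor 13a LOC100642745 (-3.43, SE 0.33) and the odorant receptor coreceptor, the partner that most insect odorant receptors need (-2.29, SE 0.45), were lower. Odorant receptor 9a (2.87, SE 0.44) and the gustatory receptor for sugar taste 43a (0.88, SE 0.12) were higher. The odorant receptor 13a LOC100643382 was at 296.0 in replicate 2 of inactive ovary and at 2.67 and 5.22 in the others, with 23.01, 17.8, and 22.2 in brain, so that its groups overlapped.

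Of the markers of blood cells, 1 of 2 was lower in inactive ovary, and of the antimicrobial genes 1 of 4, which is near the 24.4% of all genes. Croquemort, a scavenger receptor of phagocytes in flies, was at 1553, 1940, and 2263 in inactive ovary and at 14698, 18276, and 16327 in brain (-3.11, SE 0.16), while hemocytin, the other marker of blood cells, was at similar levels (0.16, adjusted p = 0.70). Lysozyme, which digests bacterial walls, was at 164.9, 169.7, and 174.4 in inactive ovary and at 650.1, 743.4, and 762.9 in brain (-2.07, SE 0.16). Defensin varied widely within a tissue, with 15.2, 15.5, and 120.1 in inactive ovary and 166.8, 4.23, and 12.6 in brain.

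Some named genes outside the lists, chosen after their values were seen, had large negative differences. Equilibrative nucleoside transporter 4 (-8.37), the amino acid transporter B(0)AT3 (-7.64), the organic anion transporter family member 5A1 (-7.24), and solute carrier family 41 member 1 (-7.01) were each at 324.7 or less in every inactive ovary library. Borderless, an immunoglobulin protein of the nervous system in flies, was at 161.7, 148.5, and 471.0 in inactive ovary and at 32934, 44473, and 35211 in brain (-7.37, SE 0.42). Of 2 genes named elongation factor 1-alpha, LOC100631080 was lower, with 843.2, 844.5, and 1169 in inactive ovary and 21207, 32281, and 24907 in brain (-4.77), and LOC100631084 higher, with 135170, 136457, and 166116 in inactive ovary and 67800, 86510, and 75343 in brain (0.93). The copies may share reads, so their values are uncertain.

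For the 10 genes with the largest negative differences no descriptive name was held here, and they differed by -11.71 to -10.22. LOC100651870 headed them, with 0.00, 4.65, and 146.2 in inactive ovary and 26445, 37994, and 30851 in brain (-11.71, SE 1.58, and -13.69 without replicate 3 of inactive ovary). LOC105667095 was at 41.9, 89.9, and 1451 in inactive ovary and at 176347, 273720, and 218182 in brain (-10.26, SE 1.16), where it ranked 6th of all genes. LOC100644042 had the smallest error of the 10, with 2.41, 13.25, and 12.25 in inactive ovary and 15730, 14723, and 15507 in brain (-10.79, SE 0.52). The other 7 were LOC100645836, LOC100649369, LOC100643981, LOC100651172, LOC100644904, LOC100644074, and LOC100645727, each at 7743 or more in every brain library.

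Replicate 3 of inactive ovary stood apart in these genes. Over 62 genes with a brain mean of at least 2000 and a log2 difference of -8 or below, a set chosen from these values, the median level in replicates 1, 2, and 3 of inactive ovary was 0.0954%, 0.112%, and 0.471% of the brain mean, and replicate 3 was the highest ovary library for 53 of the 62. Over 19 genes with the opposite pattern, the median level in the brain libraries was 0.158%, 0.0522%, and 0.0762% of the inactive ovary mean. Where the traces in replicate 3 came from was not tested. Without that library, 4329 genes were higher and 2243 lower, and 744 were lower by 3 or more.

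**Figure D3:**
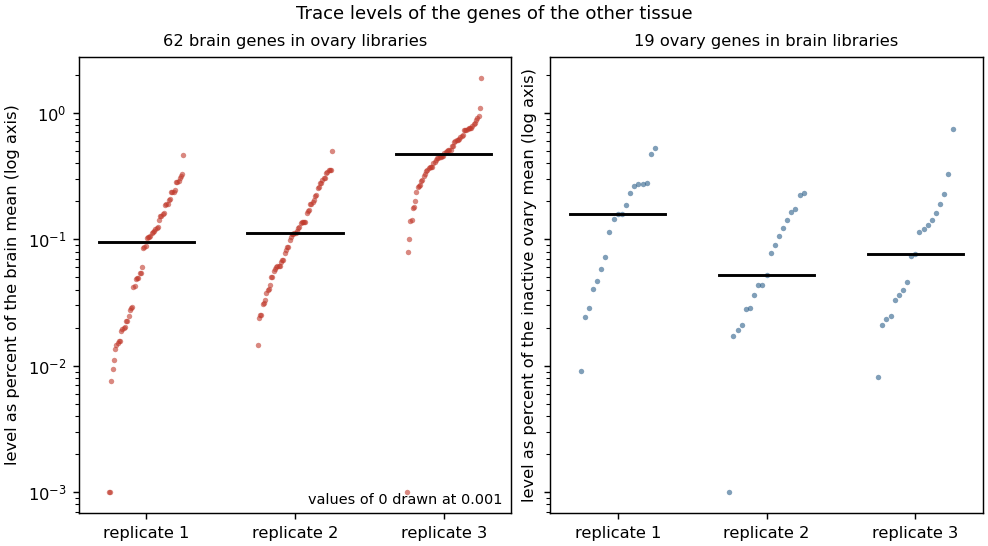
Levels of 62 brain genes in the 3 inactive ovary libraries (left, percent of the brain mean, log axis) and of 19 ovary genes in the 3 brain libraries (right, percent of the inactive ovary mean), with each gene a point, the line the median, and values of 0 drawn at 0.001. Replicate 3 of inactive ovary has a median of 0.471%, above 0.0954% and 0.112% in the other ovary libraries.

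Genes of the germline were higher in inactive ovary. Of 7 tested, 6 were higher and none lower (median 2.56). CPEB1, the cytoplasmic polyadenylation element-binding protein whose fly counterpart Orb controls translation in the oocyte, was at 157124, 106591, and 156807 in inactive ovary and at 221.2, 109.1, and 198.0 in brain (9.67, SE 0.29, adjusted p = 8.09e-07). It was the second most abundant gene of inactive ovary, with 0.58% of the total, and ranked 7938th in brain. Bicaudal C, an RNA-binding protein of the fly ovary, was at 28965, 32762, and 21415 in inactive ovary and at 455.1, 344.9, and 373.7 in brain (6.13, SE 0.18). The piRNA genes were also higher, maelstrom 2 with 3268, 6454, and 3341 in inactive ovary and 20.2, 22.9, and 24.1 in brain (7.47, SE 0.29) and Ago3 by 2.30 (SE 0.15). Ovo, a transcription factor of the fly germline, was at 297.7, 884.5, and 168.6 in inactive ovary and at 67.9, 57.5, and 53.1 in brain (2.56, SE 0.56), with replicate 2 the highest ovary library. Tudor was not called, at 3970, 6449, and 4770 in inactive ovary and 6002, 1871, and 4146 in brain (0.46, adjusted p = 0.34).

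Hox and head patterning genes were higher in inactive ovary than in brain, with 5 of 6 called higher and none lower (median 3.97). Antennapedia, which specifies thoracic segments in fly embryos, was at 16869, 14259, and 14184 in inactive ovary and at 72.0, 35.3, and 34.8 in brain (8.37, SE 0.28). Deformed, a gene of head segments, was at 3171, 3287, and 3129 in inactive ovary and at 123.7, 93.1, and 74.4 in brain (5.06, SE 0.20). Empty spiracles (4.26, SE 0.37) and proboscipedia (3.69, SE 0.29), 2 more genes that act in the head of the fly embryo, were also higher without overlap, as was spalt-major (3.51). Sex combs reduced was at 147.1, 115.5, and 172.3 in inactive ovary and at 86.3, 83.0, and 111.1 in brain (0.62, adjusted p = 0.055), which did not pass with all libraries but did without replicate 2 of inactive ovary.

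Of 6 genes of hormone pathways, 5 were higher and none lower (median 2.20). Cytochrome P450 315a1, an enzyme of ecdysteroid synthesis, was at 6313, 9985, and 2703 in inactive ovary and at 17.3, 6.77, and 4.83 in brain (9.21, SE 0.58). Cytochrome P450 307a1, which acts at an earlier step, was at 469.8, 413.8, and 738.1 in inactive ovary and at 42.2, 32.2, and 34.8 in brain (3.82, SE 0.28). An ecdysteroid-regulated 16 kDa protein (2.52, SE 0.24), Kr-h1, a transcription factor induced by juvenile hormone (1.87, SE 0.33), and the broad-complex (1.48, SE 0.40) were also higher. Cytochrome P450 18a1, which inactivates ecdysteroids, was at similar levels (-0.23, adjusted p = 0.37), and under median-of-ratios scaling it was called lower. Outside this list, and chosen after its values were seen, the probable nuclear hormone receptor HR3 went the other way. It was at 3.25, 31.3, and 11.4 in inactive ovary and at 2324, 738.0, and 1511 in brain (-6.85, SE 0.75).

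Genes of cell division were higher in inactive ovary. DNA replication genes were higher in 12 of 13 cases and lower in none (median 1.71), and mitosis genes in 6 of 6 (median 1.5, and 5 of 6 under median-of-ratios scaling). The DNA polymerase delta small subunit was at 742.6, 967.9, and 735.0 in inactive ovary and at 110.3, 165.1, and 126.5 in brain (2.60, SE 0.22). Cyclin E1, which drives entry into DNA replication, was at 1000, 1522, and 962.6 in inactive ovary and at 176.4, 152.4, and 180.6 in brain (2.74, SE 0.22). The replication licensing factor Mcm6 (2.19, SE 0.21) and condensin complex subunit 1, which compacts chromosomes (2.13, SE 0.16), were also higher.

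Muscle markers were higher in inactive ovary for 6 of 10 genes and lower for 1 (median 2.45). The count higher was not far above the 48.0% of all genes tested, while the list median was above their median of 0.42. Myosin regulatory light chain 2 was at 5472, 6968, and 8317 in inactive ovary and at 147.7, 613.8, and 251.1 in brain (4.58, SE 0.47), and troponin I, a switch of contraction, at 6780, 6492, and 9706 in inactive ovary and at 162.1, 754.6, and 310.0 in brain (4.48, SE 0.51). Replicate 2 was the highest brain library for both and for the titin gene LOC100642449 (1940, 1944, and 3000 in inactive ovary, 71.5, 326.6, and 117.8 in brain). Twitchin, a giant protein of the muscle fibre, was at 11226, 12902, and 18681 in inactive ovary and at 816.4, 573.7, and 683.7 in brain (4.35, SE 0.22). Tropomodulin was lower (-0.44, SE 0.15, adjusted p = 0.029) but lost the call without replicates 1 or 2 of inactive ovary or 2 or 3 of brain. The summed level of the list was 57885 to 84460 in inactive ovary and 28281 to 42041 in brain, and the part of muscle in these differences was not tested.

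Markers of other tissues were measured as well. All 3 genes listed as fat body markers were higher, namely 2 lipid storage droplet proteins (1.29 and 1.54) and a vitellogenin-like precursor, named for its likeness to a yolk protein. The precursor was at 117.7, 372.8, and 86.7 in inactive ovary and 47.9, 43.2, and 39.6 in brain (1.82, SE 0.52). The summed level of this list was 8033 to 9578 in inactive ovary and 3166 to 3745 in brain. The list did not mark fat body well in these data, since in the fat body of ovary-inactive workers, normalized separately, the vitellogenin-like precursor (LOC100643258) had a mean of only 2.80 normalized counts and the droplet protein LOC100643974 of 182.3, while the droplet protein LOC100643850 had 9733. Melittin, the main peptide of bee venom, was at 375.3, 40695, and 10128 in inactive ovary and at 24.9, 21.2, and 6.76 in brain (8.35, SE 1.55, and 6.89 to 10.27 when single libraries were left out). This gene was chosen after its values were seen, it varied by over 100-fold between the ovary libraries, and the source of its reads was not tested. Of the extracellular matrix genes, peroxidasin, which cross-links collagen, was higher (2.59, SE 0.21), as was tenascin (1.57, SE 0.29), and laminin beta-1 and papilin were not called. These 2 of 4 higher were near the 48.0% of all genes tested.

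Housekeeping lists moved by smaller amounts. Ribosomal proteins were higher in 19 of 21 cases and lower in none (median 1.11), and in 13 of 21 under median-of-ratios scaling (median 0.71). The largest difference among them was that of 60S ribosomal protein L5, with 20805, 24469, and 20201 in inactive ovary and 5491, 8518, and 6968 in brain (1.66, SE 0.18). Genes of the respiratory chain went the other way, with 8 of 16 lower and 1 higher (median -0.27), and 10 lower under median-of-ratios scaling. Only 3 were lower without replicate 3 of inactive ovary, 4 without replicate 1 of inactive ovary, and 4 without replicate 3 of brain. Leaving out any other library left 7 or 8 lower. Proteasome genes were higher in 7 of 15 cases with equal totals (median 0.37), near the share (48.0%) and the median of all genes. Under median-of-ratios scaling 3 were higher and 1 lower.

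**Figure D4:**
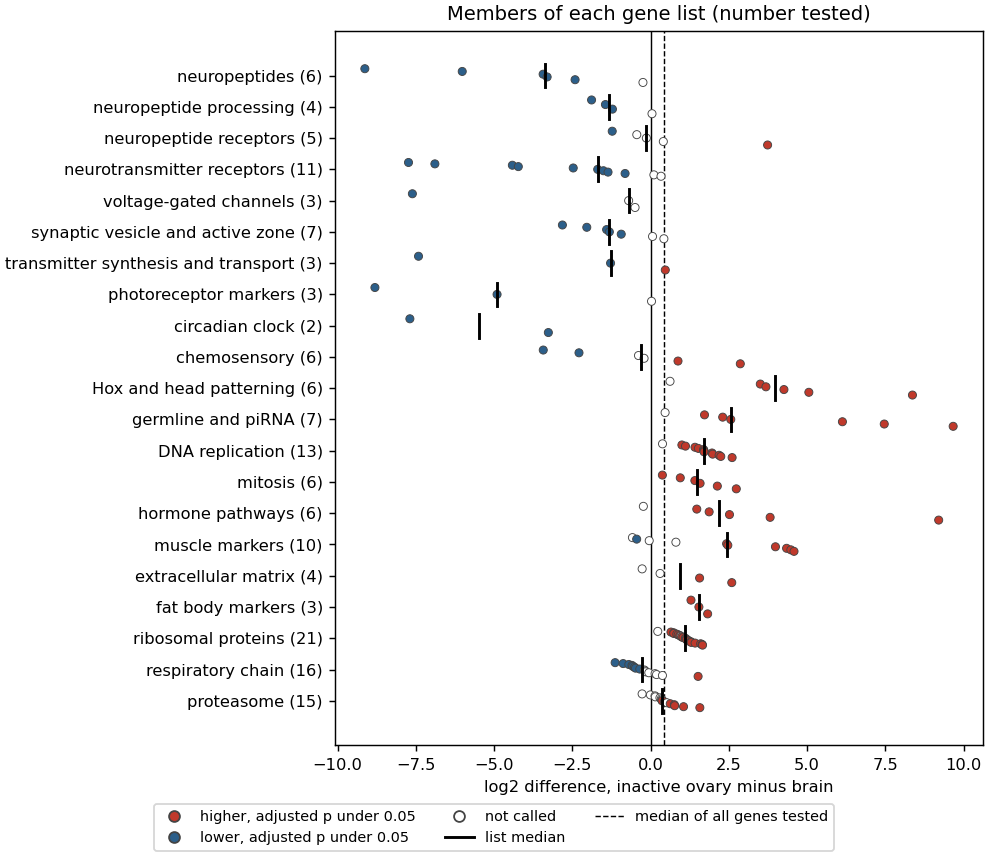
Log2 difference (inactive ovary minus brain) of each member of 21 gene lists, with filled points for genes called higher (red) or lower (blue), open points for genes not called, short black lines for list medians, and the dashed line for the median of all genes tested (0.42). The list medians of neuropeptides (-3.37) and transmitter receptors (-1.69) lie left of 0, and those of Hox and head patterning (3.97) and the germline (2.56) right of the median of all genes.

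The 10 genes with the largest positive differences differed by 9.67 to 11.82. LOC100650127 headed them, with 13224, 9381, and 12707 in inactive ovary and 2.88, 3.39, and 0.966 in brain (11.82, SE 0.34). UDP-glucuronosyltransferase 1-8, of a family of detoxifying enzymes that add sugars, was at 11694, 13294, and 22842 in inactive ovary and at 4.61, 6.997, and 5.79 in brain (11.15, SE 0.29). LOC100650035 was at 54515, 69487, and 97320 in inactive ovary and at 43.2, 12.7, and 17.4 in brain (11.65, SE 0.43), and it ranked 8th of all genes in inactive ovary. Besides these and CPEB1, the group held LOC100650346, LOC100642898, LOC100651124, LOC100642642, LOC105666656, and LOC100646564, with no descriptive name held here for any of them. Of them, LOC105666656 varied most, with 5652, 16334, and 4305 in inactive ovary.

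Named genes outside the lists and chosen after their values were seen included transcription factors. Forkhead box D1, of a family of DNA-binding proteins, was at 1482, 1356, and 2016 in inactive ovary and at 18.3, 11.0, and 10.6 in brain (6.84, SE 0.28). Nuclear receptor subfamily 2 group E member 1 (LOC100644248), whose fly counterpart tailless patterns the embryo, was at 769.3, 513.8, and 301.7 in inactive ovary and at 5.75, 0.847, and 2.90 in brain (7.08, SE 0.55). Others varied among the ovary pools: 15-hydroxyprostaglandin dehydrogenase was at 2808, 7105, and 1296 in inactive ovary (8.88, SE 0.61) and histone H2B-like at 723.0, 1624, and 219.2 (7.68, SE 0.91), each under 9 in every brain library. Replicate 2 was the highest ovary library for both. In that library 42 genes were at least 4-fold above both other ovary libraries, and 78.6% of these had a mean of at least 100 estimated counts in worker-laid eggs, near the 82.1% of all genes tested. The corresponding numbers were 1 gene for replicate 1, and 41 genes for replicate 3, of which 14.6% reached that level in eggs.

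The same tissues of ovary-active workers were held in another 6 libraries. Of the 497 genes higher by 3 or more in inactive ovary, 489 could be tested in ovary-active workers, and 464 of them (94.9%) were higher in the active ovary than in the brain of those workers and 1 was lower. Of the 719 genes lower by 3 or more, 718 could be tested, and 689 (96.0%) were lower and 4 higher. Over all 9495 genes tested in ovary-active workers, 70.1% were called, 38.9% higher and 31.2% lower, with 6.52% higher and 9.73% lower by 3 or more. By 3 or more in ovary-active workers, 360 of the 489 were higher and 600 of the 718 lower. The sizes were not always alike. CPEB1 differed by 9.67 in ovary-inactive and 6.46 in ovary-active workers, ovo by 2.56 and 6.22, and short neuropeptide F by -9.13 and -5.20. These genes were chosen after their values were seen, and the differences between phenotypes were not tested.

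**Figure D5:**
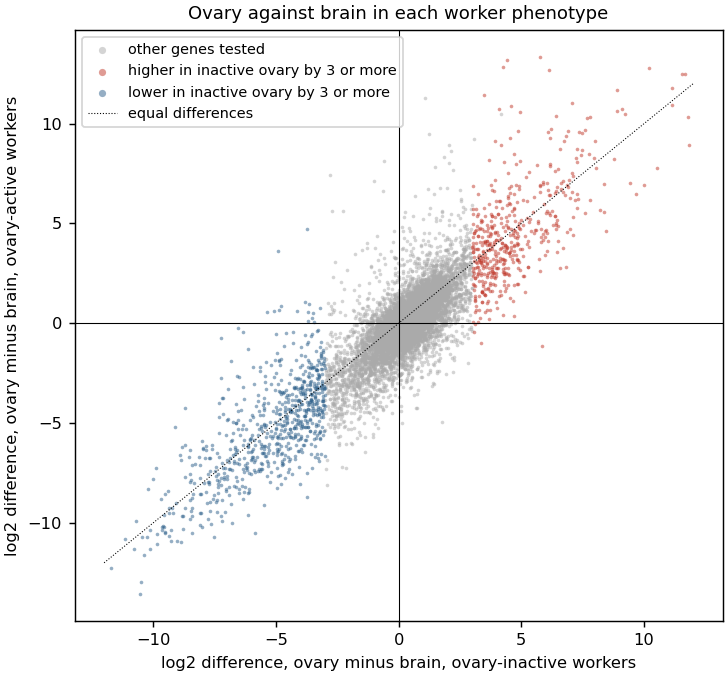
The log2 difference between ovary and brain of each gene in ovary-active workers (vertical) against that in ovary-inactive workers (horizontal), with genes called and different by 3 or more in ovary-inactive workers in red (higher) or blue (lower), other genes in grey, and a dotted line of equal differences. The red and blue points lie with few exceptions on the same side of 0 in both phenotypes.

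Eggs and fat body, which were not used to call the genes, were read as further levels. A mean of at least 100 estimated counts in eggs was reached by 79.9% of the 497 genes higher by 3 or more in inactive ovary and by 26.6% of the 719 genes lower by 3 or more, against 82.1% of all genes tested. Median levels in eggs were 1505, 21.9, and 1387 estimated counts in these groups and over all genes tested. In fat body of ovary-inactive workers, 40.6% and 34.5% of the 2 groups had a mean normalized count of at least 100, against 77.0% of all genes tested.

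A small part of each table was not shared. The ovary table listed 303 genes absent from that of brain (3.0% of 10087), and the brain table listed 259 genes absent from that of ovary (2.58% of 10043). In inactive ovary, 122 of the 303 genes had a mean normalized count of at least 10, and in brain 112 of the 259, and together these genes made up 0.0882% of the inactive ovary total and 0.0759% of the brain total. The lowest sum of reads over the 6 libraries of a tissue, among genes of whole reads, was 10 in both tables, so a gene missing from a table may still have a few reads in that tissue. The values that follow are normalized counts of 1 table and were not set against the other tissue.

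Of the genes listed for ovary alone, LOC100647932 was the highest, at 3792, 4243, and 2668 in inactive ovary. It was followed by LOC100652127 (mean 1653 ± 203, SD, n = 3), LOC100642666 (1429 ± 102), LOC105666848 (1421 ± 1866), and LOC110119155 (731.5 ± 179). LOC105666848 was carried by replicate 2, with 596.1, 3558, and 110.2. Named genes of this group, chosen after their values were seen, included gooseberry-neuro, a transcription factor of fly development, at 727.9, 597.8, and 278.0.

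Of the genes listed for brain alone, LOC100644876 was the highest, at 1591, 2192, and 1853, followed by LOC100648142 (1827 ± 1447), LOC100645385 (1440 ± 421), and LOC100645147 (1438 ± 438). The fifth was tipE (LOC100642677), a partner of the para sodium channel in flies, at 1458, 867.1, and 1255. A second tipE gene (LOC100642393), at 1808, 529.8, and 1158, and the potassium channel sup-9, at 1200, 912.8, and 1061, were also among them, both named after their values were seen. Pro-corazonin, a neuropeptide precursor, was at 176.7, 422.6, and 248.4 in brain. None of these genes was tested.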

How the data were processed

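The authors pseudoaligned 50-base reads from 3 lanes with kallisto 0.46.1, summarised them per gene with tximport, and deposited for each tissue 1 table of signal values: gene-level estimated counts after division by the factors of DESeq2 1.34.0, set within the tissue (normalized counts; tools and versions from the submitters' processing notes). In 5 of the 6 libraries used here about 60% of the values were whole multiples (within 0.02) of 1 constant per library, and in replicate 3 of brain all were. The other values may carry a gene length factor centred within the tissue, which was not tested, nor was why replicate 3 of brain differed. Differences in transcript isoform length between tissues were not corrected. For eggs the authors deposited estimated counts (scaledTPM). Read totals are the summed values divided by the library constant.

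Genes in both tables were scaled to the mean library total (24121101). For those with a mean of at least 10, log2(scaled count + 1) was fitted by limma 3.58.1 (R 4.3.3; variance prior with a mean trend), and p-values were adjusted after Benjamini and Hochberg. Calls are adjusted p under 0.05. Groups came from the sample titles. P-values measure the spread between pools, and intervals cover counting error only. Count tests (edgeR 4.0.16, DESeq2 1.42.0) used the 5510 genes of whole reads, of which 5274 had a mean of at least 10. Ovary-active workers were fitted in the same way. In libraries simulated for this comparison (9493 genes), limma called 94.8% of genes changed by a log2 of 1 and 100% of those changed by 2 or 3, and 5.3% of its calls were unchanged genes. The simulation changed only 77, 57, and 66 genes by 1, 2, and 3, in both directions, with the same spread for every gene. In the data 72.4% of genes were called, so these rates need not hold for the reported calls.

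Names came from the study's supplementary tables, as far as they were held here, which in the later range of identifiers name only genes expressed in eggs. The 31 gene lists were patterns on these names. The list of meiosis genes is not reported here. No name was held for glia, head gland, or yellow and royal jelly genes, the only gut marker (trypsin-3) was not called, and of 2 cuticle markers tested 1 was lower. The named genes are the 10 with the largest difference in each direction (called, no overlap, a mean of at least 100 in the higher tissue), the 4 called members of each list with the largest difference in each direction, and the 5 highest of each table alone. The other named genes were chosen after their values were seen. The members and lists were chosen with earlier results of these data known. No sequences were used here.

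Alternatives were other scalings, pseudocounts of 0.5 and 5, no filter or a mean of at least 50, genes of whole reads, edgeR, DESeq2, limma without the trend, an adjusted p under 0.01, an absolute log2 difference of at least 1, a replicate block, and leaving out each library. Python 3.11.15, pandas 2.3.3, numpy 2.4.6, and matplotlib 3.10.9 were used for tables and figures.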

Additional observations from a re-analysis of the deposited data

Results flagged for a closer look

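Acetylcholinesterase (LOC100644218) was lower in the ovary than in the brain of ovary-active workers (-1.32), and with equal totals its difference had the opposite sign in ovary-inactive workers (0.47). The value of 0.47 was close to the median of all genes (0.42), was 0.07 under median-of-ratios scaling (limma, adjusted p = 0.70), and also lost its call with TMM factors, without the 50 genes of highest mean, and in 4 of the 6 fits that left out 1 library. In ovary-active workers it was at 2592, 4201, and 3044 in ovary and at 8709, 6742, and 8856 in brain, and in ovary-inactive workers at 13933, 10925, and 12227 in ovary and 10375, 7576, and 8917 in brain, so the tissues did not overlap in either phenotype with equal totals. The difference between the phenotypes was not tested.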

How the results depend on the processing

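Leaving out each library in turn gave 4100 to 4621 genes higher and 1996 to 2406 lower in inactive ovary than in brain. Among genes of whole reads only, where 5274 genes were tested, limma called 2630 higher and 1171 lower, edgeR 2624 and 1173, and DESeq2 2693 and 1206. Requiring an absolute log2 difference of at least 1 left 2730 higher and 1648 lower. Of the genes listed in 1 table only, 122 of the ovary and 112 of the brain had a mean of at least 10. The share of calls that were higher was 66.3% with equal totals, 49.7% under median-of-ratios scaling, 51.2% with TMM factors, and 59.8% without the 50 genes of highest mean. Libraries of the same replicate number had correlations of deviations of -0.11, 0.07, and 0.04, and those of different numbers -0.15 to 0.14. With 3 libraries per tissue, and numbers that need not match between tissues, this cannot tell which pools share workers. By the paper's description most did, and the main fit treated all pools as independent, so its p-values leave out this pairing. A block on replicate number, with which 4486 genes were higher and 2276 lower, need not follow the shared workers. Of the 114 named genes tested, 103 were called under all of the 21 alternatives that gave a value, 11 lost the call under at least 1, and 0 changed sign. These genes were picked as called and without overlap in the same 6 libraries, so this outcome was largely set by the choice. Genes with levels of a few scaled counts rest on a few reads, which limits their differences.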
